A study of Mus musculus with 4 samples.

Results

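The genes described here are the ligands, antagonists, receptors, SMADs and common target genes of bone morphogenetic protein (BMP) and transforming growth factor beta (TGF-beta) signalling, measured in mouse fibroblasts with and without PA1. The list holds 49 genes, and a probe set was counted as a member when the platform annotation gave it the symbol of a listed gene. This found 104 of the 45037 probe sets on the array, for 47 of the 49 genes, while Bmp3 and Gdf6 had none under their symbols. RNA came from immortalised mouse embryonic fibroblasts homozygous for a loxP-flanked PA1 allele. The PA1 +/+ cells (2 arrays) received a retrovirus with the empty vector, and the PA1 -/- cells (2 arrays) received one expressing Cre recombinase, the enzyme that removes DNA between loxP sites. Both lines were grown in DMEM with 10% FBS and selected in 2.0 ug/ml puromycin, while the sources used here do not give the age of the embryos or the way the cells were immortalised. The control cells thus carried the loxP-flanked alleles and the viral vector but no Cre, so effects of Cre itself cannot be told apart from those of the deletion. Pagr1a, the gene for PA1, read 1340 and 1389 in the wild-type arrays numbered 1 and 2 and 107.6 and 113.4 in the knockout arrays. Which part of Pagr1a the allele removes is not stated, and a probe set outside it would not check the deletion itself.

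Ligands of both families are secreted dimers that bring together type I and type II receptor kinases on the cell surface. BMP receptors then phosphorylate SMAD1 and SMAD5, and TGF-beta and activin receptors phosphorylate SMAD2 and SMAD3. Both pairs enter the nucleus with SMAD4, and the inhibitory SMAD6 and SMAD7 damp the signal. In fibroblasts the TGF-beta pathway is known for matrix production and contractility, and the BMP pathway for inducing the Id genes. For the comparison of the arms, 26 genes were placed in the BMP arm, 19 in the TGF-beta arm (the activin genes and follistatin included, since activins signal through SMAD2 and SMAD3) and 4 in neither, because both arms use them.

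Signals are MAS5 values on a linear scale, and differences are knockout minus wild type in log2(signal + 9.96), which understates the change of dim genes. Tests covered the brighter 50% of probe sets (mean log2 signal), with the boundary near a signal of 62.8. This kept 39 of the 49 genes: 16 of the BMP arm, 19 of the TGF-beta arm and all 4 shared ones. Each gene is read through its brightest tested probe set, and since dim genes are missing, counts over the 39 are not counts over the whole list. The arrays carry the numbers 1 and 2 within each genotype, and arrays of the same number resembled each other (r = 0.971 and 0.977 over tested probe sets) more than arrays of the same genotype did (0.918 and 0.920). Differences are therefore given at each number as well as on average. Nothing in the labels says that the numbers mark separate cultures. The p-values hence cover the spread among these arrays alone, and that spread may be technical.

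Of the 39 tested members, 3 were at least 1.5-fold lower in the knockout at both numbers: the ligand gene Bmp4, the activin subunit gene Inhbb and the matrix gene Tgfbi. That is 7.69% of the members, against 2.55% of all 10714 tested genes. At least 1.5-fold higher at both numbers were 0 members, against 1.46% of all genes. With genotype as the only term, 0 members passed limma at an adjusted p under 0.05, against 0% of all genes, and every tested member had an adjusted p of 0.9998. At an unadjusted p under 0.05 there were 3 members, Bmp4, Tgfbi and Tgfbr3, against 2.16% of all genes. A fit that takes the number as a block did call members, as given under the dependence on processing. The fit without it counts the difference between numbers as spread, and 0.333 is the smallest p that an exact permutation test allows with 2 arrays a group. The 2 genotypes had no overlap in 4 members on the lower side (Bmp4, Bmpr1a, Tgfbi and Tgfbr3, 10.3%) and 7 on the higher side (17.9%), close to the 11.3% and 15% of all genes. A lower level in such bulk RNA cannot be told apart from a smaller share of the cells that make it.

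**Figure D1:**
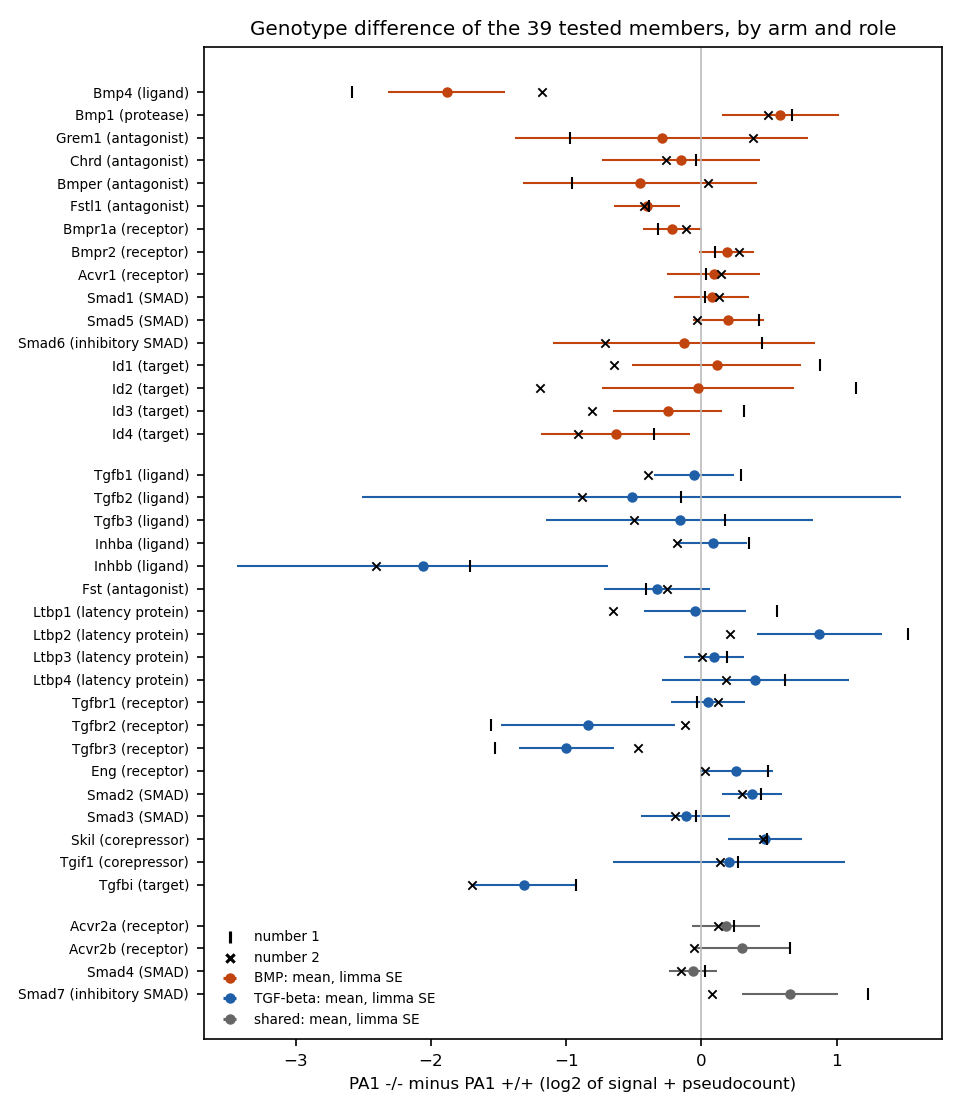
Knockout minus wild-type difference in log2(signal + 9.96) for the 39 tested members, ordered by arm and role. Coloured points are means with limma standard errors (2 arrays per genotype), black bars and crosses the differences at numbers 1 and 2. Bmp4, Inhbb and Tgfbi stand farthest to the left, at -1.88, -2.06 and -1.31.

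Bmp4 was the only one of the 9 BMP and GDF ligand genes on the list to reach the tested range. It encodes a secreted BMP that acts on osteogenic, adipogenic and mesodermal precursors. Its signal was 2814 in the wild-type array numbered 1 and 1303 in the one numbered 2, and 460.3 and 568.6 in the knockout arrays. Both knockout arrays lay below both wild-type arrays. The mean difference was -1.88 (limma SE 0.435, n = 2 per genotype), which is 3.69-fold, with -2.59 at number 1 and -1.18 at number 2. The other ligand genes with probe sets were dim: the highest signal on any array was 9.11 for Bmp2, 20.5 for Bmp5, 46.8 for Bmp6, 89.5 for Bmp7, 93.5 for Gdf5 and 24.6 for Gdf10. No difference is given for them.

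Inhbb encodes the beta B subunit of activins, which signal in the TGF-beta arm. Its signal was 161.8 in the wild-type array numbered 1 and 1646 in the one numbered 2, against 42.5 and 301.9 in the knockout. Within each number the knockout array was the lower, by -1.71 and -2.41, yet the groups overlapped, since the level was higher at number 2 in both genotypes. The mean difference of -2.06 therefore had a limma SE of 1.37. A second, dimmer probe set read 70.7 and 297.9 in wild type and 75.4 and 132.2 in knockout, a difference of 0.08 at number 1 and -1.11 at number 2. The lower level at number 1 thus rests on the brighter probe set.

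Tgfbi encodes a secreted matrix protein named for its induction by TGF-beta. It read 1235 and 2385 in the wild-type arrays numbered 1 and 2 and 642.9 and 728.3 in the knockout arrays. The difference was -0.93 at number 1 and -1.70 at number 2, with a mean of -1.31 (limma SE 0.384, 2.49-fold) and no overlap. Its 3 other tested probe sets gave -1.39, -1.17 and -0.71, so all 4 pointed the same way at both numbers.

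The sequences before the start sites of these 3 genes are shown because they are the members that were lower at both numbers, and that of Id2 because it differed in opposite directions. They come from RefSeq (GRCm38.p6), end at the base before the annotated start, and have 250 bases each. Capitals mark matches, on either strand, to any of 3 SMAD-related motifs: GGCGCC, a GC-rich element of BMP-responsive genes, CAGACA, the core of the CAGA box, and the palindrome GTCTAGAC.
Bmp4, chr14:46390670-46390919, minus strand: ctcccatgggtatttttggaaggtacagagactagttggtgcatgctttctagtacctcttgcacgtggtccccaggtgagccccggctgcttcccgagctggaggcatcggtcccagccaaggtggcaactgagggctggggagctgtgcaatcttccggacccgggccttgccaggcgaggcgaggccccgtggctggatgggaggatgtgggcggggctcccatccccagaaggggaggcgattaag
Inhbb, chr1:119422249-119422498, minus strand: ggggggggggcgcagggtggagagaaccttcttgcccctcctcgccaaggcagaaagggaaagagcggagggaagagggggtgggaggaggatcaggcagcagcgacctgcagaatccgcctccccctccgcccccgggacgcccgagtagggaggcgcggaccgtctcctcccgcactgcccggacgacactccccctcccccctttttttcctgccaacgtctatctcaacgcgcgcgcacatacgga
Tgfbi, chr13:56609336-56609585, plus strand: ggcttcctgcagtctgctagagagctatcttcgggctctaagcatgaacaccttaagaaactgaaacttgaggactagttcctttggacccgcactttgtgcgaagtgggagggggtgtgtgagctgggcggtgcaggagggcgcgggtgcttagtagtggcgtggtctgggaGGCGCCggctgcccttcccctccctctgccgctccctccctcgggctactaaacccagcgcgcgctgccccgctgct
Id2, chr12:25096093-25096342, minus strand: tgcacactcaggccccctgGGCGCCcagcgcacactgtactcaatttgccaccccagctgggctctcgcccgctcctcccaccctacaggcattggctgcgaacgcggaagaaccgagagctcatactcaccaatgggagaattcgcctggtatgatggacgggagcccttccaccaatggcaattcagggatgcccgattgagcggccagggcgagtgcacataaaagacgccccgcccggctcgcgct
The windows of Bmp4 and Inhbb held none of these motifs, and those of Tgfbi and Id2 each held 1 GGCGCC. Over all 32851 promoter windows of this length, 9.59% held GGCGCC, 17.1% CAGACA and 0.167% GTCTAGAC. Promoters were found for 34 of the 49 members, with 46 windows, of which 23.9% held GGCGCC, 15.2% CAGACA and 0 GTCTAGAC. The members' windows were also richer in G and C than all windows (medians 63.8% and 52.4%), and GGCGCC consists of these bases alone. A match describes letters and not a bound site.

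The Id genes, which encode inhibitors of basic helix-loop-helix transcription factors and are common BMP targets, differed between the numbers. Id1 read 1935 in wild type and 3556 in knockout at number 1, but 6898 and 4395 at number 2. Id2 read 1033 and 2293 at number 1 and 1259 and 545.1 at number 2. Both genes were thus higher in the knockout at number 1 (by 0.87 and 1.14) and lower at number 2 (by -0.65 and -1.19). They are the only 2 members at least 1.5-fold different in opposite directions (5.13% of the 39), a pattern found in 0.56% of all genes.

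Id3 had the same pair of signs, with 6533 and 8120 at number 1 and 6454 and 3675 at number 2, or 0.31 and -0.81. So did Smad6, the inhibitory SMAD that BMP induces, with 1922 and 2627 at number 1 and 725.1 and 438.8 at number 2, or 0.45 and -0.71. Opposite signs at the 2 numbers, whatever the size, were found in 14 of the 39 members (35.9%) and in 36.8% of all genes. Ltbp1, Tgfb1 and Tgfb3 were also above 0 at number 1 and below 0 at number 2. Id4 was the exception among the Id genes, since it was lower in the knockout at both numbers. It read 471.6 and 276.4 in wild type and 367.3 and 141.8 in knockout, a difference of -0.35 at number 1 and -0.92 at number 2 (mean -0.63, limma SE 0.552). Its other probe sets gave -0.61 and -0.35. On average over the numbers, Id1 differed by 0.11 (limma SE 0.626) and Id2 by -0.02 (SE 0.708), with a sign that turned to 0.03 when arrays were scaled to a common median. The 2 other probe sets of Id2 also had a positive difference at number 1 (0.46 and 0.69) and a negative one at number 2 (-0.63 and -0.78).

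**Figure D2:**
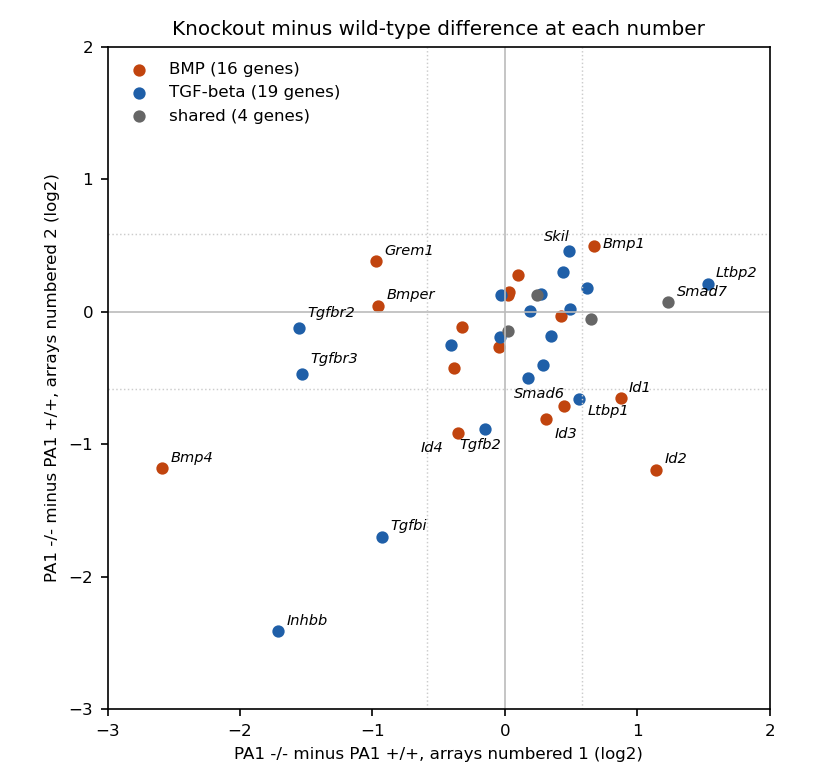
Knockout minus wild-type difference (log2) of each tested member at number 1 (x axis) and at number 2 (y axis), coloured by arm, with dotted lines at 1.5-fold. Bmp4, Inhbb and Tgfbi lie at the lower left, and Id1, Id2, Id3 and Smad6 at the lower right, above 0 at number 1 and below 0 at number 2. Ltbp1, Tgfb1, Tgfb3 and further members outside the BMP targets also lie at the lower right.

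The 4 tested members that encode extracellular antagonists of BMP were all below 0 on average, with a median of -0.35. Only Chrd and Fstl1 were below 0 at both numbers. Outside the member list, Nbl1 and Twsg1, which also encode extracellular BMP regulators, differed by 0.27 and 0.23. Grem1, which encodes gremlin, a protein that binds BMP2 and BMP4, read 373.6 in wild type and 185.5 in knockout at number 1 and 1097 and 1433 at number 2. Bmper, which encodes a chordin-like BMP modulator, read 391.0 and 196.5 at number 1 and 932.6 and 964.1 at number 2. Both were therefore lower in the knockout at number 1 (-0.97 and -0.96) and not at number 2 (0.38 and 0.05). Fstl1, a follistatin-like glycoprotein gene, read 11344 and 8514 in wild type and 8678 and 6340 in knockout, and it differed by -0.39 at number 1 and -0.42 at number 2. Chrd (chordin) differed by -0.15, and Nog (noggin) stayed dim, with a highest signal of 75.8.

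Bmp1 carries a BMP name but encodes a metalloprotease that cleaves procollagens and chordin. It read 1310 and 2493 in wild type and 2094 and 3520 in knockout, and was higher in the knockout by 0.67 at number 1 and 0.50 at number 2. The mean of 0.58 (limma SE 0.433) lay just under 1.5-fold. A second tested probe set gave 0.99 and 0.90.

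Receptors and receptor-activated SMADs of the BMP arm differed little. Bmpr1a (a type I receptor) differed by -0.22, Bmpr2 (the type II receptor) by 0.19 and Acvr1 (another type I receptor, also called ALK2) by 0.09. The 5 tested probe sets of Bmpr1a ranged from -0.22 to 0.35, so its sign depended on the probe set. Bmpr1b was not tested, with a highest signal of 75.5. Smad1 differed by 0.08 and Smad5 by 0.20, and each had a probe set on the other side of 0 (-0.08 and -0.16).

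Among the TGF-beta ligand genes, none of the 3 differed by 1.5-fold on average. Tgfb1 read 360.3 and 442.9 (wild type, then knockout) at number 1 and 431.2 and 324.7 at number 2, a mean of -0.05. Tgfb2 read 1097 and 986.3 at number 1, but only 62.9 and 29.6 at number 2. Its genotype difference of -0.52 (limma SE 1.99) is small beside that gap between numbers, and its other tested probe sets gave -0.35 and 0.11. Tgfb3 read 1866 and 2108 at number 1 and 556.1 and 391.1 at number 2, a mean of -0.16.

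The activin A subunit gene Inhba differed by 0.08, with 1267 and 1431 in wild type and 1618 and 1259 in knockout, whereas its relative Inhbb stood among the lowest members. Fst encodes follistatin, which binds and neutralises activins. Its brightest probe set read 409.0 and 618.7 in wild type and 305.5 and 517.4 in knockout, a mean difference of -0.33. A second probe set read 315.9 and 784.9 against 152.0 and 337.7, with -1.01 at number 1 and -1.19 at number 2. The probe sets shared a sign and differed in size.

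Latent TGF-beta binding proteins tether or resemble the proteins that tether inactive TGF-beta in the matrix. Ltbp2 had the highest mean difference of all members, 0.87 (limma SE 0.460, 1.83-fold). It read 1227 and 1274 in wild type and 3564 and 1478 in knockout. The knockout arrays lay above both wild-type arrays, but most of the difference came from number 1 (1.53, against 0.21 at number 2). Ltbp1 differed by 0.56 at number 1 and -0.66 at number 2, Ltbp3 by 0.10 on average and Ltbp4 by 0.40. Other probe sets of Ltbp3 ran from -0.22 to 0.05.

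The receptors of the TGF-beta arm did not share a direction. Tgfbr3 encodes betaglycan, a co-receptor that presents TGF-beta to the signalling receptors. It read 1057 and 842.6 in wild type and 359.7 and 606.8 in knockout, with no overlap, and differed by -1.53 at number 1 and -0.47 at number 2 (mean -0.998, limma SE 0.353). Tgfbr2, the type II receptor gene, read 5422 in wild type and 1840 in knockout at number 1, but 1501 and 1379 at number 2. Its mean of -0.84 (limma SE 0.645) thus rests on the high wild-type array numbered 1, and without that array the difference was 0.09. A dimmer probe set of Tgfbr2 gave -1.51 and -0.61. Tgfbr1, the type I receptor gene, differed by 0.05, and the co-receptor gene Eng (endoglin) by 0.26.

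Of the SMADs and corepressors of the TGF-beta arm, Smad2 was higher at both numbers (0.44 and 0.30; 1270 and 1456 in wild type, 1730 and 1797 in knockout), and Smad3 differed by -0.12. Skil encodes SnoN, a corepressor that binds SMADs and is itself a TGF-beta target. It read 2248 and 1696 in wild type and 3151 and 2332 in knockout, with no overlap, and the differences were nearly equal, 0.49 and 0.46 (mean 0.47, limma SE 0.275). A dimmer probe set gave 0.75 at both numbers. Tgif1, another corepressor gene, differed by 0.21.

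**Figure D3:**
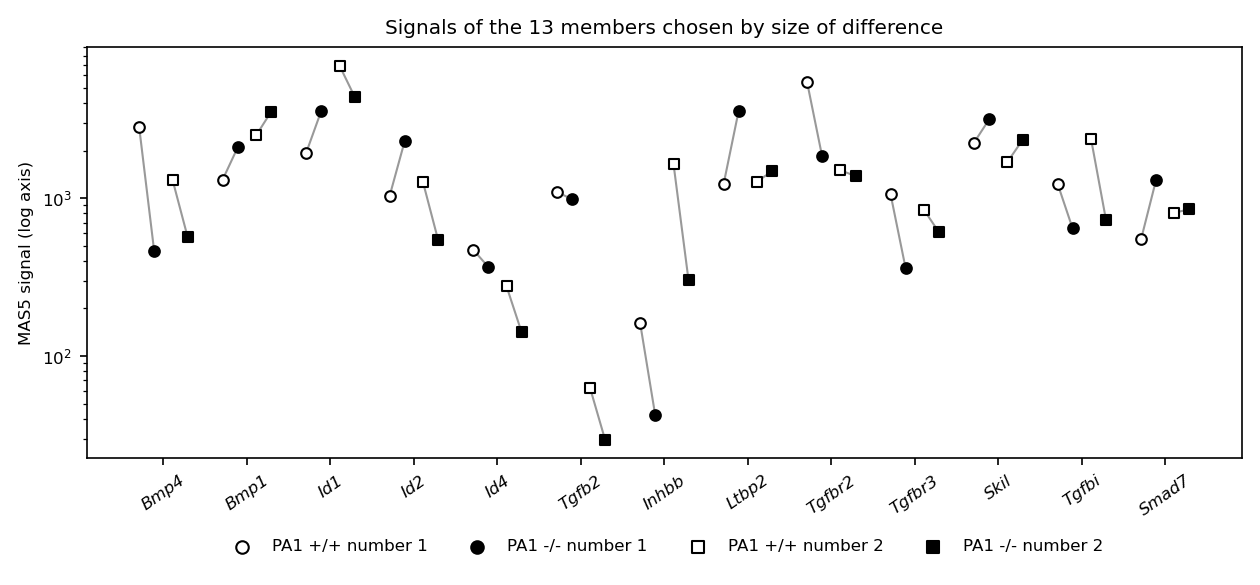
MAS5 signal (log axis) of 13 tested members: those at least 1.5-fold different at both numbers and the 8 others with the largest mean difference. Open symbols are PA1 +/+, filled symbols PA1 -/-, circles number 1 and squares number 2, and lines join the arrays of the same number. The lines of Bmp4, Inhbb and Tgfbi slope down at both numbers, and those of Id1 and Id2 slope up at number 1 and down at number 2.

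Of the genes used by both arms, Smad7, the inhibitory SMAD of both pathways, was highest relative to wild type. It read 548.5 and 807.4 in wild type and 1304 and 850.9 in knockout, or 1.23 at number 1 and 0.07 at number 2 (mean 0.65, limma SE 0.353). Another probe set of Smad7 gave -0.23. Smad4 differed by -0.06, with all 3 probe sets below 0. The type II activin receptor genes Acvr2a and Acvr2b, which also bind BMPs, differed by 0.18 and 0.30.

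Set side by side, the arms differed little in their medians. The BMP arm had a median difference of -0.14 over 16 genes (0.03 at number 1, -0.19 at number 2). The TGF-beta arm had -0.05 over 19 genes (0.19 and -0.18), a value that became 0.01 when arrays were scaled to a common median and 0.00 without the activin genes. All tested genes had a median of 0.02, which became 0.08 when arrays were scaled to a common median. In the BMP arm 10 of 16 genes were below 0, in the TGF-beta arm 10 of 19, and among all genes 46.7%. At least 1.5-fold different on average were 12.5% of the BMP arm (Bmp4 and Id4, both lower) and 26.3% of the TGF-beta arm (Inhbb, Tgfbi, Tgfbr3 and Tgfbr2 lower, Ltbp2 higher), against 8.55% of all genes. Bmp1, higher by 0.58, lay just under 1.5-fold, and Id4 and Tgfbr2 each changed sign when 1 particular array was left out. The difference between the arms was not tested. Without the knockout array numbered 2 the medians were 0.11 and 0.16.

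By place in the pathway, the 16 ligands and extracellular regulators of both arms had a median of -0.16. It was 0.07 at number 1 and -0.26 at number 2, and 11 genes were below 0, 6 of them at both numbers. Among all genes 46.7% were below 0. The 18 receptors, SMADs and corepressors had a median of 0.14 (0.17 at number 1, 0.05 at number 2), with 6 below 0. Among these 18, the largest differences at a single number were those of Tgfbr2 (-1.55), Tgfbr3 (-1.53) and Smad7 (1.23), in each case at number 1.

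The arrays numbered 1 and 2 differed more than the genotypes did for 25 of the 39 members (64.1%), much as for all genes (67.5%). The median size of the difference between numbers was 0.53 over the members and 0.34 over all genes, and that between genotypes 0.25 and 0.19. Relative to number 1, number 2 was lower by -4.29 for Tgfb2, -2.06 for Tgfb3 and -1.97 for Smad6, averaged over the genotypes. It was higher by 2.92 for Inhbb, 2.21 for Grem1, 1.82 for Tgif1, 1.74 for Bmper and 1.39 for Ltbp4. Averages near 0 can hide opposite moves: Smad7 averaged -0.03, with 0.55 between the wild-type and -0.61 between the knockout arrays.

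**Figure D4:**
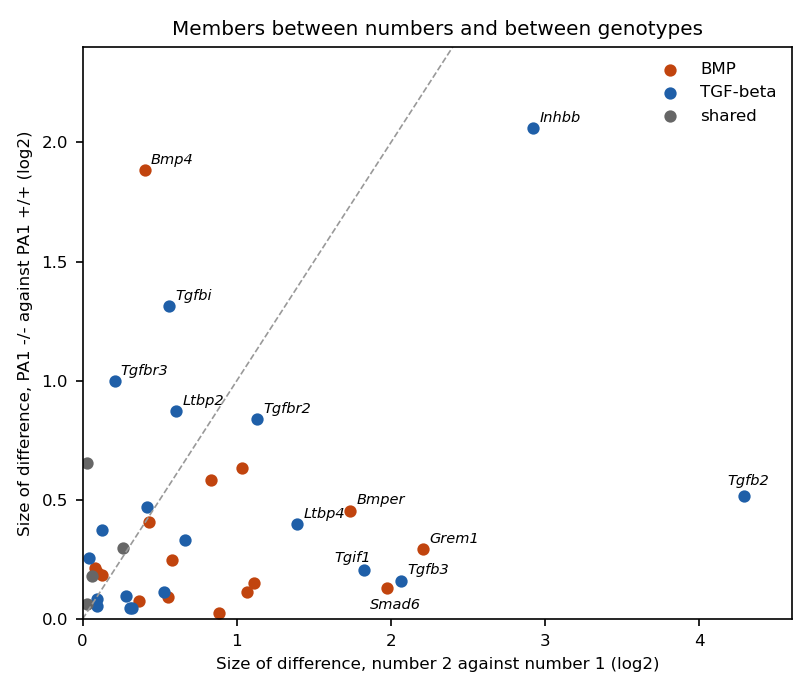
Size of the difference (log2) between numbers (x axis) and between genotypes (y axis) for the 39 tested members, coloured by arm. Points right of the dashed line differ more between numbers, as 25 do, with Tgfb2 farthest out at 4.29, and Bmp4, Tgfbi and Tgfbr3 lie left of it.

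Other genes of the 2 pathways were read from lists that hold none of the members. Of the 58 genes tested in these lists, 0 passed limma at an adjusted p under 0.05, and 3 (5.17%) had an unadjusted p under 0.05, against 2.16% of all genes. Of 10 other BMP pathway genes tested, 3 were below 0 on average, with a median of 0.19. Fstl3, a follistatin-like inhibitor of activins, differed by 0.72, the ligand gene Gdf11 by 0.58 and the BMP co-receptor gene Rgma by -0.51. Of 15 other TGF-beta pathway genes, 6 were below 0, with a median of 0.09. The integrin genes Itgb8 (-0.69) and Itgb5 (-0.63), whose products pair with alpha V, were lower at both numbers, and Furin, a protease that processes ligand precursors, differed by 0.44.

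Further target genes differed as follows. Of 8 other BMP targets, 6 were below 0, and the median was -0.45 (-0.11 at number 1 and -0.95 at number 2). Tnfrsf11b, the osteoprotegerin gene, read 488.8 and 305.9 in wild type and 148.9 and 86.9 in knockout (-1.65 and -1.71). The homeobox genes Prrx2 and Msx2 differed by -0.69 and -0.62. Atoh8 had the signs of Id1, with 0.81 at number 1 and -1.29 at number 2. At number 2 it read 106.2 in wild type and a dim 37.6 in knockout, below the tested boundary. Of 25 other TGF-beta targets, 16 were below 0, with a median of -0.09, and Postn, Lox and Snai2 were at least 1.5-fold lower at both numbers (3 of 25, against 2.55% of all genes) and 0 at least 1.5-fold higher (against 1.46%). Postn (periostin) read 2766 and 426.5 at number 1 and was below the tested boundary at number 2 (22.4 and 4.36), so its fold there compares dim signals. Tgm2 differed by -1.54 on average (limma SE 1.80). It read 4322 in wild type and 744.2 in knockout at number 1 (-2.52), but 150.2 and 99.2 at number 2 (-0.55). The calponin gene Cnn1 was higher, at 0.98 and 0.53, and the well-known targets Ccn2, Tagln and Acta2 differed by 0.29, 0.26 and 0.03.

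The cells carried fibroblast markers: Vim read at least 20163 on every array, and 10 of 11 listed markers were in the tested range. The 10 were all below 0 in the knockout on average, from -0.09 for Fn1 to -2.07 for Pdgfra. The summed signal of the 11 ran from 93408 to 101965 in wild type and from 81461 to 86100 in knockout, and its part in the lower levels of Bmp4 and Tgfbi was not tested. Col1a1 and Fn1 stand both here and among the TGF-beta targets. Of 6 markers each, 1 endothelial (Kdr, at most 82.5), 2 macrophage and 3 epithelial genes were in the tested range. Pecam1, Cdh5, Ptprc, Adgre1, Cdh1 and Krt8 were below it. Of 5 muscle markers only Des was tested, and summed signals of the muscle list were at most 214.1. The sums were 2090 to 2289 in wild type and 2007 to 3744 in knockout for epithelial genes (mostly Krt19), 162.5 to 168.3 and 166.2 to 201.1 for endothelial genes, and 286.7 to 373.4 and 331.4 to 438.3 for macrophage genes. Cartilage and bone markers, which BMP signalling can induce, summed to 2032 and 2158 in wild type and 693.4 and 1963 in knockout. The lowest sum was in the knockout array numbered 2, where Col2a1 read 274.8. Col2a1 differed by 0.07 at number 1 and -2.50 at number 2. In the same array Id2, Id3 and Id4, but not Id1, had their lowest signals, and a link between them and the markers was not tested.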

How the data were processed

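Total RNA from 4 samples was hybridised to 1 Affymetrix array each. The deposited intensity values are linear MAS5 signals per the submitters' processing notes, which name no version or settings. The 2% trimmed mean was 500.003 on every array, so arrays had been scaled and differences are relative to the array average. Median signals were 63.2 to 66.4, and the number of arrays limits precision.

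Without 64 controls, 45037 probe sets remained, with 1 gene symbol for 34945, several for 932 and none for 9160. Only those with 1 symbol were named. The pseudocount 9.96 is the 20th percentile of all signals. The 22519 probe sets tested (10714 genes by the brightest) went through limma 3.58.1 in R 4.3.3: lmFit and eBayes with trend, 2-sided, Benjamini-Hochberg over all of them, 2 residual degrees of freedom. Figures used matplotlib 3.10.9.

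The members and lists were chosen with earlier results of these data known. Members differing by at least 1.5-fold at both numbers, and the 8 others with the largest mean difference, were given with limma's SE, and other members by difference, some with their signals on each array. Of each other pathway list 3 genes were named by size of difference, and further ones after their values were seen. Alternatives covered 3 normalizations, 2 pseudocounts, 2 filters, 2 variance models, averaged probe sets, other arm definitions, a 2-fold threshold, a replicate block and each array left out.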

Additional observations from a re-analysis of the deposited data

How the results depend on the processing

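The number of arrays limits all of these values. Arrays that share a number deviated together from their genotype means (r = 0.805), but with 2 numbers and no statement in the labels this does not establish pairing. With the replicate number as a block, 3 members passed limma (7.69%, against 2.48% of all genes): Inhbb (adjusted p = 0.00126), Bmp4 (0.00521) and Tgfbi (0.00888). In every other alternative 0 passed, with the smallest adjusted p above 0.999. Averaging the probe sets of a gene gave 2 members at least 1.5-fold higher at both numbers, Bmp1 and Skil, and 4 lower, Fst being added. The average put Inhbb at -1.29 and Smad7 at 0.21. For averaged probe sets, and for the upper 30% of probe sets, the share of all genes meeting this rule was not counted. With the upper 30% of probe sets the TGF-beta median was 0.05 and 2 members were lower, as Inhbb was no longer tested, and at the 2-fold threshold 2 were lower at both numbers (0.831% of all genes) and 0 higher (0.187%). Without the filter the BMP median was -0.24 over 24 genes. Without 1 array the BMP median ran from -0.18 to 0.11, the latter without the knockout array numbered 2, and the TGF-beta median from -0.10 to 0.16, above 0 without the wild-type or the knockout array numbered 2. Such fits hold unequal numbers in the genotypes and carry part of the difference between numbers. The values without 1 array ran from -0.80 to 1.03 for Id1, -1.05 to 1.001 for Id2, -1.29 to 0.023 for Id4, -2.84 to 1.81 for Tgfb2 and -1.76 to 0.086 for Tgfbr2. The sign turned without the wild-type array numbered 1 for Id1, Tgfb2 and Tgfbr2, without the knockout array numbered 2 for Id1, Id2, Id4 and Tgfb2, and without the wild-type array numbered 2 for Id2. They kept their sign for the 8 other named members, from -2.44 to -1.33 for Bmp4, -3.69 to -0.43 for Inhbb and -1.79 to -0.84 for Tgfbi. Id2 turned to 0.032 under median scaling, a setting that moved the median of all tested genes by 0.056.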
